A study of Mus musculus with 22 samples.

Results

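The 10 genes described here, Nodal, Bmp4, Lefty1, Lefty2, Tdgf1, Acvr2b, Bmpr1a, Smad1, Smad4 and Id3, are ligands, inhibitors, receptors, effectors and a target gene of Nodal and BMP signalling. They were chosen by name, as the lines of the expression table whose gene symbol equals one of these 10. All 10 were found among the 55335 genes of the table.

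Nodal and the BMPs are secreted proteins of the TGF-beta family that bind pairs of type I and type II receptor kinases on the cell surface. Nodal also needs a membrane-bound EGF-CFC co-receptor, and its receptors phosphorylate SMAD2 and SMAD3, while BMP receptors phosphorylate SMAD1, SMAD5 and SMAD9, and both groups of SMADs enter the nucleus with SMAD4. In the mouse, Nodal signalling is known for maintaining the epiblast and setting the body axes, and BMP4 is known for its roles in the extraembryonic ectoderm and in forming mesoderm and germ cells after implantation.

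RNA was sequenced from mouse embryos of B6D2F1 dams aged 8 weeks and B6D2F1 sires, in which the histone variant H2A.Z had been knocked down (KD), and from control embryos. Each of the 22 libraries was made from 15 pooled embryos by a full-length cDNA protocol for polyadenylated RNA with 16 to 18 cycles of preamplification. KD embryos had been injected as zygotes, 20 to 22 h after the hCG injection that induces ovulation, with about 10 pl of a mixture of 3 siRNA pairs at 20 µM, and the treatment of the control embryos of these libraries is not stated. Embryos were collected at 43 to 44 h after hCG at the 2-cell stage (4 control and 3 KD libraries), at 78 h as morulae (4 control and 3 KD libraries) and at 94 h as blastocysts (4 control and 4 KD libraries). The paper reports that far fewer KD than control embryos formed blastocysts. How the embryos of the KD blastocyst libraries were chosen is not stated. The part of selection or delay in the differences at this stage was not tested.

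Levels are given as FPKM, the fragments mapped to a gene, scaled by the length of the gene and by the mapped total of the library, which can be compared between genes. Differences are given on the scale of log2(FPKM + 1) after scaling between the libraries of a comparison, and this scale understates the change of genes with low FPKM. Fold changes are taken from these differences and are not ratios of mean FPKM. A gene was tested with limma where 3 or more libraries of the comparison had an FPKM of 1 or more, and it passed with an adjusted p under 0.05. A passing gene with an absolute log2 difference above 1 is called a DEG. The number of reads per library is unknown, so no counting interval can be given. The p-values measure the spread between libraries, and the labels do not say whether libraries came from separate matings or injections.

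H2afz, which encodes H2A.Z.1 (ENSMUSG00000037894.13, chromosome 3, 137864487 to 137866922, mm10), showed how far the KD reached. At the 2-cell stage its level was 1244, 1236, 905 and 1178 FPKM in control replicates 1, 2, 4 and 5 and 415, 139 and 112 FPKM in KD replicates 1, 2 and 4. KD replicate 1 retained the most H2afz RNA of the 3, and the groups did not overlap. In morulae the level was 1158, 1336, 1511 and 1421 FPKM in control replicates 1, 2, 7 and 8 and 30.3, 25.7 and 29.0 FPKM in KD replicates 1, 2 and 6. The blastocyst libraries held 2656, 2431, 1945 and 2055 FPKM in control replicates 1, 4, 5 and 6 and 64.2, 67.2, 53.2 and 57.6 FPKM in KD replicates 1, 4, 5 and 6. At both later stages every KD library lay far below every control library. The log2 difference between KD and control for H2afz was -2.53 at the 2-cell stage (SE 0.38, adjusted p 0.544), -5.41 in morulae (SE 0.17, adjusted p 9.72e-08) and -5.19 in blastocysts (SE 0.20, adjusted p 3.63e-08). Without KD replicate 1 the 2-cell difference of H2afz passed, with an adjusted p of 0.000909. The KD difference of H2afz in morulae minus that at the 2-cell stage was -2.88 (SE 0.48, adjusted p 0.00887), and its adjusted p was 0.0531 with no filter on low FPKM. H2afv, which encodes H2A.Z.2, had log2 differences of -0.23 at the 2-cell stage (adjusted p 0.839), -2.94 in morulae (adjusted p 2.92e-06) and -1.86 in blastocysts (adjusted p 7.98e-05).

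Of the 10 genes, 4 could be tested at the 2-cell stage, 5 in morulae and 6 in blastocysts. None of the 4 passed in KD against control 2-cell embryos, where 0% of the 12160 genes tested passed and 0% were DEGs by limma, with 701 at an unadjusted p under 0.05. H2afz itself did not pass there, although its groups did not overlap, so this test can miss a large fall. In morulae 1 of the 5 passed, Id3, which rose, where 13.3% of the 10989 genes tested passed and 3.59% were DEGs. In blastocysts 1 rose, Id3, and 3 fell, Tdgf1, Acvr2b and Bmp4, where 36.5% of the 11828 genes tested passed and 13.9% were DEGs, Id3 and Tdgf1 among them. Bmp4 could be tested in blastocysts only because it was at 1 FPKM or more in 3 control libraries, and its call was lost with no filter (adjusted p 0.104). The KD and control libraries did not overlap for 0 of the 10 genes at the 2-cell stage, for Acvr2b and Id3 in morulae and for Tdgf1, Acvr2b and Id3 in blastocysts, and the shares of all tested genes without overlap were 6.78%, 29.6% and 34.5%.

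**Figure D1:**
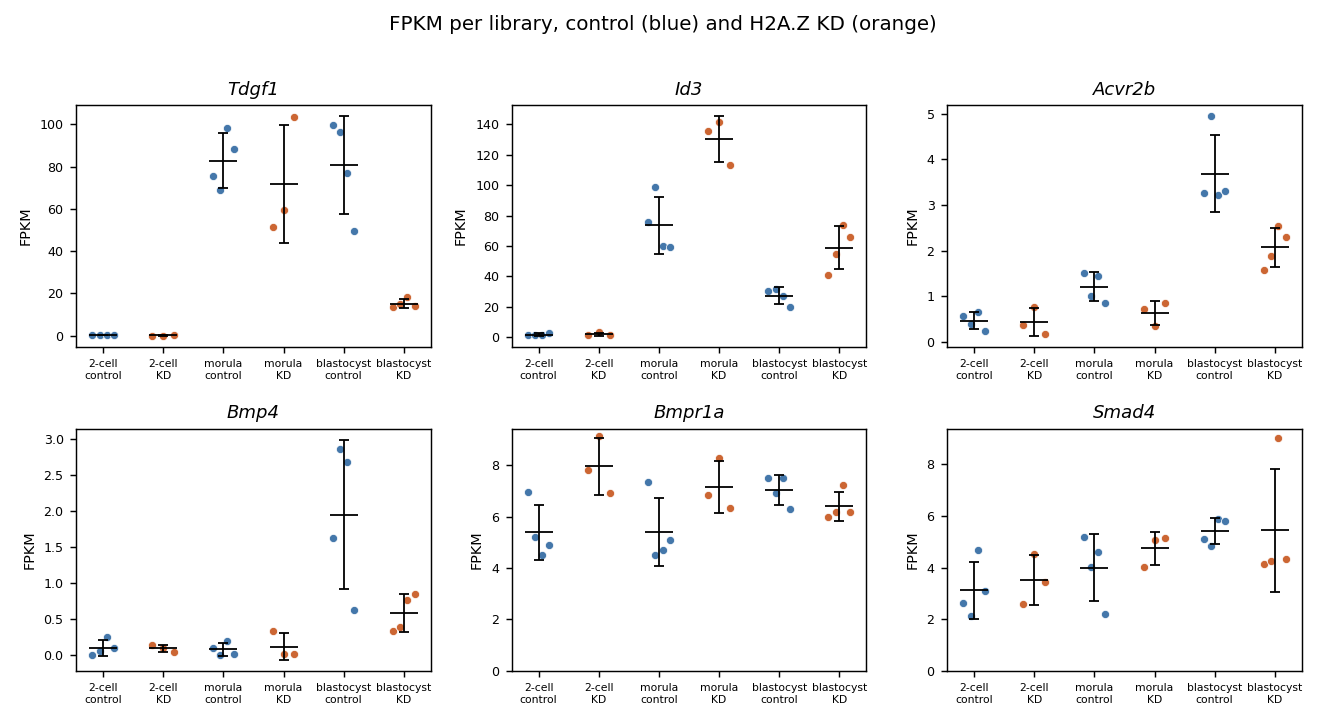
FPKM of Tdgf1, Id3, Acvr2b, Bmp4, Bmpr1a and Smad4 in each library (points), by stage and treatment, with the mean and SD of each group (lines). The 4 KD blastocyst libraries lie between 13.5 and 18.5 FPKM for Tdgf1, below the 4 control libraries, and between 41.1 and 74.0 FPKM for Id3, above them.

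Nodal, the ligand after which the pathway is named (ENSMUSG00000037171.6, chromosome 10, 61417972 to 61425338, mm10), was at or near 0 in every library, with a highest level of 0.114 FPKM in 2-cell KD replicate 2. Lefty1, an inhibitor of Nodal and one of its targets (ENSMUSG00000038793.8, chromosome 1, 180935022 to 180938400), reached at most 0.319 FPKM, in blastocyst control replicate 5. Lefty2, the neighbouring gene with the same activity (ENSMUSG00000066652.5, chromosome 1, 180893108 to 180899103), was listed at 0 in every library except blastocyst KD replicate 5, with 0.00834 FPKM. These libraries therefore held almost no RNA of the ligand Nodal or of the Lefty inhibitors, and none of the 3 genes met the filter at any stage. By an exact two-sided permutation test, the smallest p of the 9 comparisons of KD with control for these 3 genes was 0.457, for Nodal in blastocysts.

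Bmp4, a ligand of the BMP receptors (ENSMUSG00000021835.15, chromosome 14, 46383520 to 46390669), was at most 0.331 FPKM in any 2-cell or morula library. In blastocysts it was at 1.62, 2.86, 2.68 and 0.635 FPKM in control replicates 1, 4, 5 and 6 and at 0.335, 0.396, 0.772 and 0.855 FPKM in KD replicates 1, 4, 5 and 6. Control replicate 6 lay within the range of the KD libraries, so the groups overlapped, and the other control libraries lay above it. Mean levels were 1.95 ± 1.03 FPKM in controls and 0.590 ± 0.262 FPKM in KD blastocysts (SD, n = 4 and 4). Bmp4 fell in KD blastocysts, with a log2 difference of -0.83 (SE 0.25, adjusted p 0.0198), 1.78-fold lower on the scale used, and the exact permutation test of the 4 against 4 libraries gave p = 0.0857. Bmp4 passed the filter through 3 control libraries and 0 KD libraries, so it had to differ in order to be tested. It was not tested without control replicate 1, 4 or 5, and its adjusted p was 0.0540 without KD replicate 1 and 0.104 with no filter on low FPKM. With a pseudocount of 0.1 in place of 1, its log2 difference was -1.46. The KD difference in blastocysts minus that in morulae was -0.88 (SE 0.31, adjusted p 0.0730), and it passed with all 22 libraries in 1 fit (adjusted p 0.0391) and without blastocyst control replicate 6 (adjusted p 0.00464).

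Tdgf1 encodes the EGF-CFC co-receptor Cripto, which Nodal requires (ENSMUSG00000032494.12, chromosome 9, 110939603 to 110946158, minus strand), and it showed the largest change of the 10 genes under KD. At the 2-cell stage it was between 0.0935 and 0.421 FPKM in controls and between 0 and 0.386 FPKM in KD libraries, so it was hardly present at that time. In morulae its level was 75.3, 69.0, 98.1 and 88.3 FPKM in control replicates 1, 2, 7 and 8 and 51.5, 59.7 and 103 FPKM in KD replicates 1, 2 and 6. KD replicates 1 and 2 were below all control libraries and KD replicate 6 was above them all, so the groups overlapped. The log2 difference of Tdgf1 in morulae was -0.13 (SE 0.26, adjusted p 0.757) and did not pass, and without KD replicate 1 it was 0.10.

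In blastocysts Tdgf1 was at 99.5, 96.5, 77.0 and 49.3 FPKM in control replicates 1, 4, 5 and 6 and at 13.5, 15.0, 18.5 and 13.8 FPKM in KD replicates 1, 4, 5 and 6. Every KD library was below the lowest control library, replicate 6, and the KD libraries lay close together. Mean levels were 80.6 ± 23.1 FPKM in controls and 15.2 ± 2.28 FPKM under KD (SD, n = 4 and 4). Tdgf1 fell 4.87-fold on the scale used, with a log2 difference of -2.28 (SE 0.23, adjusted p 3.00e-05). The exact permutation test gave p = 0.0286, the smallest that 4 against 4 libraries can give. The KD difference of Tdgf1 in blastocysts minus that in morulae was -2.18 (SE 0.37, adjusted p 0.00133). In bulk libraries, fewer cells of a type and less RNA per cell cannot be told apart.

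Replicate numbers were split here at a gap in the numbering into a low and a high range at each stage. Low numbers were 1 and 2 for 2-cell embryos and morulae, and 1 for blastocysts. The ranges could mark libraries handled together, but the labels do not say so. Log2 differences within each range, scaled by the factors of the whole comparison, are given for the members tested. For Tdgf1 the log2 difference was -2.86 in low-numbered blastocyst libraries (1 control against 1 KD) and -2.09 in high-numbered ones (3 against 3). In low-numbered morula libraries it was -0.21 (2 against 2) and in high-numbered ones 0.26 (2 against 1).

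Acvr2b encodes a type II receptor for activins and Nodal (ENSMUSG00000061393.14, chromosome 9, 119402118 to 119434995). At the 2-cell stage it lay between 0.239 and 0.662 FPKM in controls and between 0.172 and 0.774 FPKM under KD. In morulae its level was 1.503, 1.02, 1.45 and 0.858 FPKM in control replicates 1, 2, 7 and 8 and 0.724, 0.351 and 0.845 FPKM in KD replicates 1, 2 and 6. All KD morula libraries were below all control libraries, by a narrow margin between KD replicate 6 and control replicate 8. Acvr2b passed the filter in morulae through 3 control and 0 KD libraries and so had to differ in order to be tested, and its log2 difference of -0.37 (SE 0.17, adjusted p 0.182) did not pass. It was -0.47 in low-numbered and -0.15 in high-numbered morula libraries.

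Blastocysts held 3.27, 4.94, 3.23 and 3.31 FPKM of Acvr2b in control replicates 1, 4, 5 and 6 and 1.57, 1.87, 2.53 and 2.31 FPKM in KD replicates 1, 4, 5 and 6. Control replicate 4 was the highest, and the groups did not overlap. Mean levels were 3.68 ± 0.835 FPKM in controls and 2.07 ± 0.431 FPKM under KD (SD, n = 4 and 4). Acvr2b fell in KD blastocysts, with a log2 difference of -0.60 (SE 0.17, adjusted p 0.0179), 1.52-fold lower on the scale used. The exact permutation test gave p = 0.0286. Without control replicate 4 the adjusted p was 0.0582. The KD difference of Acvr2b in blastocysts minus that in morulae was -0.24 (SE 0.23, adjusted p 0.540). Within ranges of replicate numbers, the blastocyst log2 difference of Acvr2b was -0.80 in low-numbered libraries (1 against 1) and -0.54 in high-numbered ones (3 against 3), and that of Bmp4 was -1.05 and -0.76.

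Bmpr1a, the type I receptor ALK3 through which BMP2 and BMP4 signal (ENSMUSG00000021796.15, chromosome 14, 34410734 to 34503341), was present at all stages. At the 2-cell stage its level was 6.96, 5.21, 4.495 and 4.91 FPKM in control replicates 1, 2, 4 and 5 and 7.81, 9.16 and 6.92 FPKM in KD replicates 1, 2 and 4. The highest control library lay just above the lowest KD library, so the groups overlapped. Morulae held 7.35, 4.52, 4.69 and 5.08 FPKM in control replicates 1, 2, 7 and 8 and 6.85, 8.29 and 6.33 FPKM in KD replicates 1, 2 and 6, and here control replicate 1 stood among the KD libraries. In blastocysts the controls lay between 6.28 and 7.51 FPKM and the KD libraries between 6.01 and 7.22 FPKM. In low-numbered and high-numbered libraries, the log2 difference of Bmpr1a was 0.42 and 0.62 for 2-cell embryos, 0.48 and 0.42 for morulae and -0.34 and -0.0422 for blastocysts. The log2 difference of Bmpr1a was 0.55 at the 2-cell stage (SE 0.20, adjusted p 0.828), 0.47 in morulae (SE 0.17, adjusted p 0.0913) and -0.12 in blastocysts (SE 0.16, adjusted p 0.603), and none passed. Without morula control replicate 1, the morula difference passed (adjusted p 0.0493), as did the KD difference of Bmpr1a in blastocysts minus that in morulae (adjusted p 0.0470), which was -0.62 with all libraries of both stages (SE 0.22, adjusted p 0.0698).

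Smad1, an effector of BMP receptors (ENSMUSG00000031681.16, chromosome 8, 79338395 to 79399518), was at 1.20, 2.12, 0.784 and 0.439 FPKM in 2-cell control replicates 1, 2, 4 and 5 and at 1.65, 0.923 and 1.07 FPKM in KD replicates 1, 2 and 4. The KD values lay inside the range of the controls. The log2 difference of Smad1 at the 2-cell stage was 0.13 (SE 0.28, adjusted p 0.950), and it was -0.22 in low-numbered libraries (2 against 2) and 0.45 in high-numbered ones (2 against 1). Later it was lower, at most 0.577 FPKM in morulae and 0.698 FPKM in blastocysts, and was not tested there between KD and control by limma, and the exact permutation tests gave p = 0.4 and p = 0.914.

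Smad4, the effector shared by both branches (ENSMUSG00000024515.13, chromosome 18, 73639009 to 73703780), was at 2.12 to 4.67 FPKM in 2-cell controls and 2.59 to 4.52 FPKM under KD, and in morulae at 2.19 to 5.19 FPKM in controls and 4.02 to 5.14 FPKM under KD. In blastocysts it was at 5.10, 4.85, 5.90 and 5.82 FPKM in control replicates 1, 4, 5 and 6 and at 4.14, 4.27, 9.01 and 4.35 FPKM in KD replicates 1, 4, 5 and 6. KD replicate 5 was the highest of all 8 and the other KD libraries were the lowest, so the groups overlapped. The log2 difference of Smad4 was 0.20 at the 2-cell stage (SE 0.23, adjusted p 0.892), 0.34 in morulae (SE 0.21, adjusted p 0.304) and -0.05 in blastocysts (SE 0.20, adjusted p 0.872), and its KD difference in blastocysts minus that in morulae was -0.43 (SE 0.30, adjusted p 0.372). By range of replicate numbers, low before high, the Smad4 values were 0.40 and 0.0138 for 2-cell embryos, 0.13 and 0.64 for morulae and -0.31 and 0.0347 for blastocysts.

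Id3, a target gene of BMP signalling that encodes an inhibitor of bHLH transcription factors (ENSMUSG00000007872.3, chromosome 4, 136143497 to 136145755), was the member that rose under KD. At the 2-cell stage it lay between 1.05 and 2.57 FPKM in controls and between 1.11 and 2.93 FPKM under KD, with a log2 difference of 0.11 (SE 0.27, adjusted p 0.955), or 0.45 in low-numbered and -0.35 in high-numbered libraries. In morulae its level was 75.8, 99.1, 59.9 and 59.4 FPKM in control replicates 1, 2, 7 and 8 and 135, 142 and 113 FPKM in KD replicates 1, 2 and 6. Every KD morula library was above every control library. Mean levels were 73.5 ± 18.6 FPKM in controls and 130.2 ± 15.1 FPKM under KD (SD, n = 4 and 3). Id3 rose 1.95-fold in KD morulae, with a log2 difference of 0.96 (SE 0.19, adjusted p 0.0102), and the exact permutation test gave p = 0.0571, where 0.0286 is the smallest that 4 against 3 libraries can give. The adjusted p was 0.0513 without morula KD replicate 2 and 0.0665 with no filter on low FPKM.

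Id3 was at 30.5, 31.5, 27.2 and 19.4 FPKM in blastocyst control replicates 1, 4, 5 and 6 and at 41.1, 54.6, 74.0 and 65.8 FPKM in KD replicates 1, 4, 5 and 6. Again the groups did not overlap, and KD replicate 1 was nearest to the controls. Mean levels were 27.1 ± 5.48 FPKM in controls and 58.9 ± 14.3 FPKM under KD (SD, n = 4 and 4). Id3 rose 2.12-fold in KD blastocysts, with a log2 difference of 1.09 (SE 0.21, adjusted p 0.00173, exact permutation p = 0.0286). Its KD difference in blastocysts minus that in morulae was 0.08 (SE 0.29, adjusted p 0.891). Within ranges of replicate numbers the log2 difference of Id3 was 0.84 (low-numbered, 2 against 2) and 1.03 (high-numbered, 2 against 1) in morulae, and 0.36 (1 against 1) and 1.33 (3 against 3) in blastocysts.

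The stages were also compared within each treatment, which asks how these genes change as the embryo develops. From the 2-cell stage to the morula, Tdgf1, Id3 and Acvr2b rose and Smad1 fell in controls (4 of the 6 members tested), where 83.7% of the 14605 genes tested passed. Under KD, Tdgf1 and Id3 rose and Smad1 fell over the same interval, where 80.7% passed. The log2 difference of Tdgf1 from the 2-cell stage to the morula was 5.97 in controls (SE 0.23, adjusted p 8.63e-13) and 6.01 under KD (SE 0.26, adjusted p 7.07e-12), and it met the filter of this fit through morula libraries only. Id3 rose by 4.83 on the log2 scale in controls (adjusted p 6.56e-12) and by 5.69 under KD (adjusted p 8.01e-12). Acvr2b rose by 0.56 in controls (SE 0.16, adjusted p 0.00376). It met the filter of this fit through 3 control morula libraries only, so it had to differ in order to be tested, and without control replicate 1, 2 or 7 it was not tested. Smad1 fell by 0.78 in controls (SE 0.21, adjusted p 0.00295) and by 0.74 under KD (SE 0.25, adjusted p 0.0118), with an adjusted p of 0.0552 under KD without 2-cell KD replicate 1. It met the filter through 2-cell libraries only, 2 control and 2 KD, and so had to be higher there in order to be tested. With a pseudocount of 0.1 the log2 difference in controls was 1.21 for Acvr2b and -2.03 for Smad1, and -1.61 for Smad1 under KD. Smad4 in controls had a log2 difference of 0.24 (SE 0.20, adjusted p 0.265), which passed without morula control replicate 8 (adjusted p 0.0488). The KD difference in morulae minus that at the 2-cell stage did not pass for any of the 6 members tested, 0 of 6, where 1.43% of genes passed by limma and 2145 genes had an unadjusted p under 0.05.

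From the morula to the blastocyst, Acvr2b and Bmp4 rose and Id3 fell in controls, where 55.6% of the 12727 genes tested passed. Under KD, Acvr2b rose and Tdgf1 and Id3 fell, where 38.1% passed. Tdgf1 was at like levels in control morulae and control blastocysts, with a log2 difference of -0.12 (SE 0.25, adjusted p 0.717), while under KD it fell by 2.30 (SE 0.27, adjusted p 7.81e-06). The test of that contrast is the KD difference in blastocysts minus that in morulae given with Tdgf1, which was the 1 member of 6 tested that passed, where 11.7% of genes passed. Id3 fell by 1.44 in controls (SE 0.20, adjusted p 9.73e-06) and by 1.36 under KD (SE 0.21, adjusted p 0.000108). Acvr2b rose by 1.05 in controls (SE 0.16, adjusted p 2.62e-05) and by 0.81 under KD (SE 0.17, adjusted p 0.00141). Bmpr1a in controls had a log2 difference of 0.31 (SE 0.15, adjusted p 0.0786), which passed without morula control replicate 1 (adjusted p 0.0374). Bmp4 rose by 1.35 in controls (SE 0.21, adjusted p 3.62e-05), where it met the filter through 3 control blastocyst libraries only and was not tested without any 1 of them (replicate 1, 4 or 5). Under KD the log2 difference of Bmp4 was 0.46 (SE 0.23, adjusted p 0.117), which passed with a pseudocount of 0.1 (adjusted p 0.0230) and without blastocyst control replicate 6 (adjusted p 0.0312). With a pseudocount of 0.1 the log2 differences were 3.41 for Bmp4 in controls and 1.42 for Acvr2b and 1.76 for Bmp4 under KD.

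The order of mean FPKM levels differed between the groups. In 2-cell controls Bmpr1a, Smad4, Id3 and Smad1 led, and the libraries of each overlapped with those of the next. In control morulae Tdgf1 and Id3 led and overlapped, with Bmpr1a next and clear of them, while in KD morulae Id3 stood above Tdgf1 without overlap. Control blastocysts had Tdgf1, Id3, Bmpr1a and Smad4 in that order, with no overlap between neighbours, whereas in KD blastocysts Id3 led Tdgf1, which led Bmpr1a, again with no overlap, and Bmpr1a overlapped with Smad4. The summed FPKM of the 10 genes was 12.1 in 2-cell controls and 15.2 under KD, 167 in control morulae and 215 under KD, and 126 in control blastocysts and 89.1 under KD.

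A wider list of 77 genes of the same signalling family, without the 10 members, held other ligands, convertases, receptors, SMADs with their partners, antagonists and targets. In KD against control, 30 of them were tested at the 2-cell stage, of which 0 passed by limma, with the smallest adjusted p over all genes at 0.544. The 19 tested in morulae included 1 that rose and 1 that fell, beside 13.3% of all genes passing, and the 20 tested in blastocysts included 6 that rose and 5 that fell, beside 36.5%. Of these 11 calls, 5 were lost with no filter (Id1, Foxh1, Smad7, Tgif2 and Trim33), where 11.2% of all genes passed, and Id1 and Smad7 met the filter through KD libraries only. Their median log2 differences were 0.14, 0.33 and -0.07 at the 3 stages, beside 0.00358, 0.0153 and 0.00466 over all genes tested. The KD comparisons of Id3 and Tdgf1 share their control libraries with these.

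Cfc1 encodes Cryptic, the other EGF-CFC co-receptor of Nodal (ENSMUSG00000026124.4, chromosome 1, 34535648 to 34544313). It was listed at 0 in all 2-cell libraries. In morulae it was at 0.271, 0.364, 0.545 and 0.474 FPKM in control replicates 1, 2, 7 and 8 and at 0.0377, 0 and 0.0993 FPKM in KD replicates 1, 2 and 6, too low to be tested. The KD morula libraries already lay below all control libraries. In blastocysts it was at 29.8, 18.4, 16.4 and 18.6 FPKM in control replicates 1, 4, 5 and 6 and at 1.45, 4.09, 2.46 and 1.70 FPKM in KD replicates 1, 4, 5 and 6. Every KD library was far below every control library, and control replicate 1 was the highest. Cfc1 fell in KD blastocysts with a log2 difference of -2.69 (SE 0.28, adjusted p 3.71e-05). Its KD difference in blastocysts minus that in morulae was -2.27 (SE 0.35, adjusted p 0.000635), and with a pseudocount of 0.1 it was -1.33 (adjusted p 0.114).

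Gdf3, a ligand that signals through the same receptors and co-receptor as Nodal (ENSMUSG00000030117.5, chromosome 6, 122605403 to 122610087), was at 22.0, 25.9, 25.1 and 23.1 FPKM in blastocyst control replicates 1, 4, 5 and 6 and at 13.2, 7.49, 6.29 and 5.56 FPKM in KD replicates 1, 4, 5 and 6. All KD libraries lay below all controls, with KD replicate 1 the nearest. Gdf3 fell in KD blastocysts with a log2 difference of -1.51 (SE 0.24, adjusted p 0.000628), and in KD morulae with -0.69 (SE 0.16, adjusted p 0.0225). The morula call was lost with no filter (adjusted p 0.0707) and without control replicate 2 (0.0534), 7 (0.0602) or 8 (0.0513) or KD replicate 1 (0.0890) or 2 (0.10). Foxh1, the partner through which SMAD2 and SMAD4 bind DNA, was at 1.69, 2.15, 3.80 and 1.73 FPKM in blastocyst control replicates 1, 4, 5 and 6 and at 0.673, 1.46, 1.35 and 0.548 FPKM in KD replicates 1, 4, 5 and 6, without overlap. Foxh1 fell with a log2 difference of -0.72 (SE 0.22, adjusted p 0.0211), and the adjusted p was 0.0865 with no filter, 0.0526 without control replicate 5, 0.0564 without KD replicate 1 and 0.0673 without KD replicate 6. With a pseudocount of 0.1 the difference of Foxh1 was -1.16.

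The other Id genes of the wider list, which like Id3 are targets of BMP signalling, were Id1, Id2 and Id4. Id4 was too low to be tested in blastocysts, with mean levels of 0.0459 FPKM in controls and 0.0620 FPKM under KD. In blastocysts Id1 was at 0.348, 0.232, 0.352 and 0.340 FPKM in control replicates 1, 4, 5 and 6 and at 1.63, 1.20, 0.567 and 3.71 FPKM in KD replicates 1, 4, 5 and 6. All KD libraries were above all controls, and Id1 rose with a log2 difference of 0.97 (SE 0.27, adjusted p 0.0153, and 0.0987 with no filter), or 1.91 with a pseudocount of 0.1. Id1 met the filter through 3 KD and 0 control libraries, so it had to differ in order to be tested. Id2 was at 847, 853, 677 and 642 FPKM in control replicates 1, 4, 5 and 6 and at 279, 366, 239 and 311 FPKM in KD replicates 1, 4, 5 and 6. The KD libraries lay below the controls without overlap, and Id2 fell with a log2 difference of -1.33 (SE 0.21, adjusted p 0.000533). The KD difference of Id2 in blastocysts minus that in morulae was -2.21 (SE 0.36, adjusted p 0.000892). Id2 in morulae had a log2 difference of 0.83 (SE 0.27, adjusted p 0.0667), which passed with a batch term for low against high replicate numbers (adjusted p 0.0365). Id1 in morulae had one of 0.53 (SE 0.35, adjusted p 0.332), which passed with the replicate number as a block (adjusted p 0.00104) and without KD replicate 6 (adjusted p 0.0323). Only replicates 1 and 2 occur in both morula groups, so the KD difference with this block rests on those libraries alone.

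Among the antagonists, Fstl3, a secreted binder of activins (ENSMUSG00000020325.10, chromosome 10, 79777272 to 79782630), was at 1.40, 3.01, 5.98 and 2.96 FPKM in blastocyst control replicates 1, 4, 5 and 6 and at 9.61, 7.03, 15.4 and 12.9 FPKM in KD replicates 1, 4, 5 and 6. The KD libraries lay above the controls without overlap. Fstl3 rose with a log2 difference of 1.56 (SE 0.28, adjusted p 0.00111), and its KD difference in blastocysts minus that in morulae was 1.89 (SE 0.40, adjusted p 0.00633). Bambi, a decoy receptor named here after its values were seen, rose in KD morulae with a log2 difference of 0.98 (SE 0.21, adjusted p 0.0148, and 0.0787 with no filter) and in KD blastocysts with 0.86 (SE 0.17, adjusted p 0.00211). Dand5 was the only other antagonist of the 3 tested in blastocysts, and it did not pass. Its mean levels were lower under KD, with overlap, at 2.27 and 1.23 FPKM in control and KD blastocysts and 1.20 and 0.591 FPKM in morulae. Skil, a repressor of SMAD activity also named after its values were seen, fell in KD blastocysts with a log2 difference of -0.89 (SE 0.22, adjusted p 0.00756). In morulae the log2 difference of Skil was 0.68 (SE 0.26, adjusted p 0.110), and it passed with the replicate number as a block (0.75, adjusted p 0.0406) and with the batch term (0.80, adjusted p 0.0104). The value with the block rests on morula replicates 1 and 2 alone, the only numbers in both groups. The KD difference of Skil in blastocysts minus that in morulae was -1.61 (SE 0.36, adjusted p 0.00773).

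Of the 10 SMADs and partners of the wider list tested in blastocysts, Foxh1 and Skil fell and 3 rose, Smad7, Tgif2 and Trim33, beside 36.5% of all genes passing. Smad7, an inhibitory SMAD, had mean levels of 0.635 FPKM in controls and 1.44 FPKM under KD (log2 difference 0.53, SE 0.19, adjusted p 0.0419, or 0.98 with a pseudocount of 0.1), and it met the filter through 3 KD and 0 control libraries. Tgif2, a repressor, was at 1.00 and 3.00 FPKM on average (0.99, SE 0.28, adjusted p 0.0154, or 1.64 with a pseudocount of 0.1), and Trim33, which binds SMADs, at 4.87 and 7.25 FPKM (0.48, SE 0.17, adjusted p 0.0438). Each lost its call with no filter, with adjusted p of 0.123 for Smad7, 0.0936 for Tgif2 and 0.0509 for Trim33. Smad7 and Trim33 also lost theirs without scaling. With 1 library left out, Tgif2 lost its call without control replicate 4, Smad7 lost it or was not tested for every library except KD replicate 4, and Trim33 lost it for every library except control replicate 1.

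**Figure D2:**
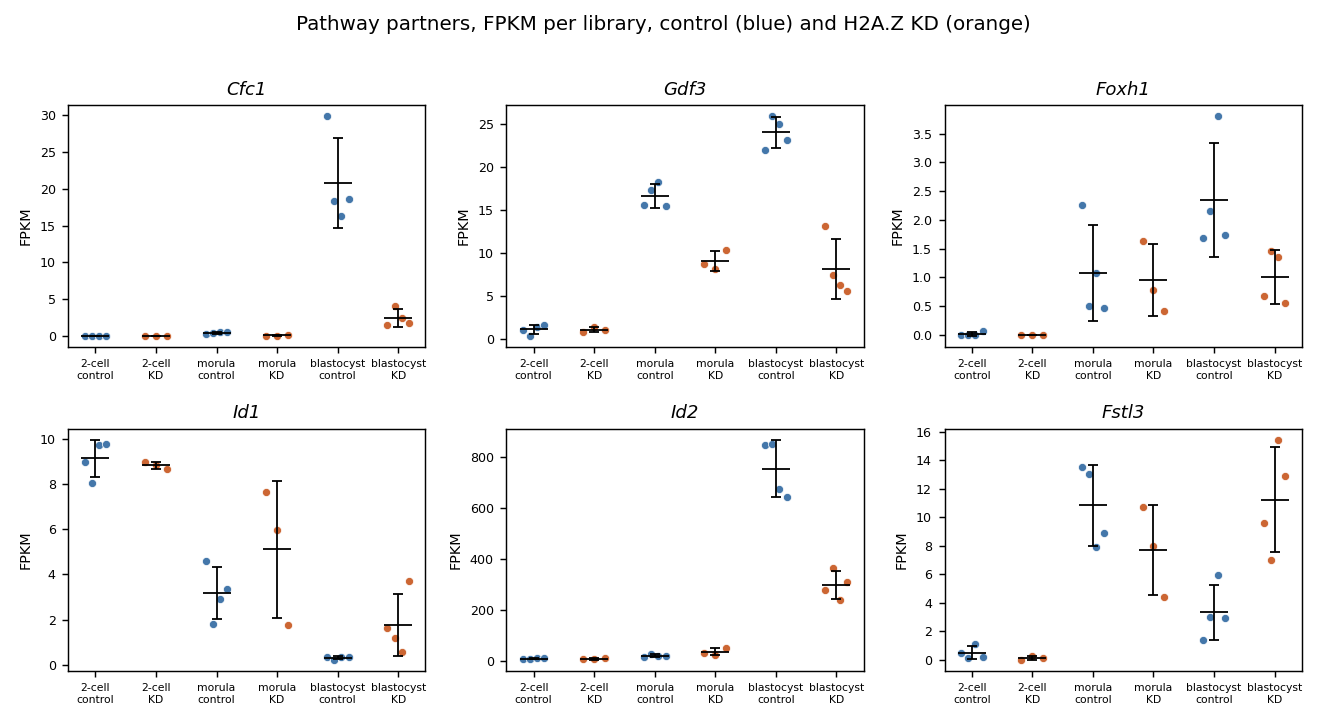
FPKM of Cfc1, Gdf3, Foxh1, Id1, Id2 and Fstl3 in each library (points), by stage and treatment, with the mean and SD of each group (lines). In blastocysts the KD libraries lie below all control libraries for Cfc1, Gdf3, Foxh1 and Id2 and above them for Id1 and Fstl3.

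Several other close partners of the members were scarce. Acvr1b, the type I receptor of Nodal, stayed at or below 0.585 FPKM in all libraries, the BMP effector Smad5 at or below 1.29 FPKM and the ligand Bmp7 at or below 0.547 FPKM. The convertases Furin and Pcsk6, which process such ligands, reached at most 0.353 and 0.693 FPKM, and the antagonist Cer1 0.314 FPKM. Bmpr2, the type II receptor for BMPs, was between 6.07 and 7.87 FPKM at the 2-cell stage and at most 1.01 FPKM in morulae and blastocysts. Smad3, the other effector of Nodal receptors, was between 1.26 and 1.85 FPKM at the 2-cell stage and at most 0.323 FPKM later. Smad2, which acts beside Smad3, was not scarce, at 17.4, 17.5, 14.7 and 17.7 FPKM in control morula replicates 1, 2, 7 and 8 and at 7.89, 12.8 and 13.5 FPKM in KD replicates 1, 2 and 6. The KD morula libraries lay below the controls, but the log2 difference of -0.44 (SE 0.21, adjusted p 0.185) did not pass. In blastocysts, where Smad2 was between 5.89 and 14.8 FPKM in controls and between 8.66 and 20.1 FPKM under KD and the groups overlapped, it was 0.38 (SE 0.31, adjusted p 0.375).

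Tdgf1 and Cfc1, the pair of EGF-CFC co-receptors, both fell in KD blastocysts, and the 250 bases before their RefSeq starts are shown for that reason. They are from RefSeq on GRCm38.p6, 5′ to 3′ on each gene's strand, chr9:110946159-110946408 (minus strand) for Tdgf1 and chr1:34535398-34535647 (plus strand) for Cfc1, and overlap no annotated exon. Capitals mark the letters CAGAC, the core of a SMAD box, with their reverse complement GTCTG, and the letters CCAAT, the box of that name, with their reverse complement ATTGG.
Tdgf1: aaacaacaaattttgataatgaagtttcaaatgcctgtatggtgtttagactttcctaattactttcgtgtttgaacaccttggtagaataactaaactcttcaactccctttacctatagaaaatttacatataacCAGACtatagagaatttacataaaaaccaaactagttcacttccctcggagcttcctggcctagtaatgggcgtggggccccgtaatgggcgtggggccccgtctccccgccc
Cfc1: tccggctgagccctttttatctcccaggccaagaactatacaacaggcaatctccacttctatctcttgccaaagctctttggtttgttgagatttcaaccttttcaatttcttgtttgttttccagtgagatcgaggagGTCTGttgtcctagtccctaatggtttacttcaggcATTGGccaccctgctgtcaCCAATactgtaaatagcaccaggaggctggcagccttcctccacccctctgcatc
Tdgf1 holds 1 SMAD box and Cfc1 holds 1 SMAD box and 2 CCAAT boxes, and of 32851 such windows in the genome 42.2% hold the former and 33.8% the latter. Neither window holds the octamer ATGCAAAT or its reverse complement ATTTGCAT (1.6% of windows), the GC-rich SMAD box GGCGCC (9.59%) or the TATA box TATAAA, whose reverse complement is TTTATA, (12.4%). The share of G and C was 42% for Tdgf1 and 47.6% for Cfc1, beside a median of 52.4%, and the number of CG steps was 7 and 2, beside a median of 6. These matches are letters in a window and were not tested for function.

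Some sequence is shared between genes. Of the 2665 stretches of 50 bases in Tdgf1 transcripts, 236 (8.86%) also occur in the pseudogene Tdgf1-ps1. Tdgf1-ps1 was at 6.96, 5.17, 5.02 and 1.72 FPKM in blastocyst control replicates 1, 4, 5 and 6 and at 0.351, 1.15, 0.656 and 1.58 FPKM in KD replicates 1, 4, 5 and 6. Those KD libraries lay below all controls, and the log2 difference of Tdgf1-ps1 was -1.503 (SE 0.32, adjusted p 0.00369). Whether reads of one gene were counted for the other was not tested. Lefty1 and Lefty2 share 306 stretches, 17.9% of those of Lefty1.

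Over the 15 morula and blastocyst libraries, the genes most like Tdgf1 in their log2 values were Tdgf1-ps1 (Pearson r 0.927), Terb2 (0.918) and Tmem17 (0.916). For Id3 they were the mitochondrial tRNA genes mt-Th (r 0.967) and mt-Ts2 (0.958) and Duxbl2 (0.956). Nodal was near 0 in all of them and did not meet the filter. Its highest r values over 12727 genes were with Gm26670 (r 0.820), Cant1 (0.788) and A930029G22Rik (0.767). With levels this near 0 and so many genes compared, these r values cannot show likeness. The values for Tdgf1 and Id3 are the highest over all genes tested and describe likeness over libraries that share 4 groups.

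Levels of lineage markers in KD and control libraries are given here beside the share of all genes that passed. Of the 9 trophectoderm markers, all tested in blastocysts, 2 rose (Krt7, log2 difference 0.64, and Tfap2c, 0.96) and 3 fell (Elf5, Gata2 and Krt18), where 36.5% of all genes passed, and their summed FPKM was 1198 ± 240.9 in controls and 680.5 ± 99.6 under KD (SD, n = 4 and 4), most of it Krt18 with mean levels of 799 and 389.7 FPKM. Of the 7 epiblast markers, 5 were tested in blastocysts and 1 fell, Prdm14, with a log2 difference of -1.04 (adjusted p 0.000529), and their sum was 154 ± 48.5 FPKM in controls and 192 ± 62.6 FPKM under KD, most of it Nanog. In that list the means of Nanog, Pou5f1 and Esrrb (0.145 and 0.236 FPKM, without overlap) were higher under KD. Those of Sox2 (1.67 and 1.36 FPKM), Klf2 (2.77 and 2.69 FPKM) and Fgf4 (0.820 and 0.516 FPKM, without overlap) were lower. In morulae, where 13.3% of all genes passed, Nanog, the same list's most abundant gene, fell with a log2 difference of -2.23 (adjusted p 0.00645) and Klf2 rose with 0.71 (adjusted p 0.0279), and the sum of the list was 145 ± 17.9 FPKM in controls and 50.3 ± 8.08 FPKM under KD (SD, n = 4 and 3). The 8 primitive endoderm markers summed to 14.4 ± 4.77 FPKM in control and 21.1 ± 12.5 FPKM in KD blastocysts, most of it Gata6 with mean levels of 10.6 and 19.0 FPKM. Gata4 (0.0404 and 0.0659 FPKM) and Col4a1 (0.959 and 0.989 FPKM) were also higher under KD on average. Pdgfra (1.72 and 0.595 FPKM), Sox17 (0.596 and 0.277 FPKM), Sox7 (0.104 and 0.0962 FPKM) and Lama1 (0.323 and 0.0350 FPKM, without overlap) were lower, and Foxa2 was at 0. Of the 8 markers, 2 were tested and 0 passed by limma. The 7 markers of 2-cell embryos summed to 2.38 ± 1.26 FPKM in control and 18.8 ± 13.4 FPKM in KD blastocysts, and Tcstv3 (log2 difference 2.01, adjusted p 0.0145) and Zfp352 (1.57, adjusted p 0.00156) rose among the 3 tested. Elf5, Gata2 and Prdm14 met the filter through control libraries only and Zfp352 through KD libraries only, so these 4 had to differ in order to be tested. The 8 oocyte markers summed to 2.44 FPKM in control and 3.58 FPKM in KD blastocysts, and the 6 cumulus cell markers to at most 0.110 FPKM in any blastocyst library. The part of the cell types these lists mark in the differences of Tdgf1, Acvr2b, Bmp4 and Id3 was not tested.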

How the data were processed

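The authors aligned the reads to mm10 (GRCm38) with STAR, computed FPKM per gene with StringTie 2.1.4 and deposited FPKM for 22 libraries. Their own tests used DESeq2 1.30.1 on counts from featureCounts 1.6.2, which are not used here. Here FPKM were divided within each comparison by median-of-ratios factors (0.874 to 1.20) and then put on a log2 scale with a pseudocount of 1. The factors were rescaled to a geometric mean of 1, a choice made after seeing the data, because without it the counts of DEGs differed from those of an earlier analysis of these data. Genes were kept where 3 or more libraries of the comparison reached an FPKM of 1, and were tested with limma 3.58.1 (lmFit, eBayes with a trend) in R 4.3.3, with Benjamini-Hochberg adjustment over all genes tested. Fits over both stages of a pair gave stage changes and differences of the KD effect. Exact permutation tests were two-sided on log2(FPKM + 1). The steps were tested on simulated data. Sequences and summaries were made with Python 3.11.15, pandas 2.3.3 and numpy 2.4.6, and figures with matplotlib 3.10.9. Positions are from GENCODE, where 55154 of the 55335 identifiers matched.

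The members and lists were chosen with earlier results of these data known. Named genes were all 10 members, H2afz and H2afv, close partners, DEGs of the wider list and the 3 genes most like Tdgf1, Nodal and Id3. Alternatives were another pseudocount (0.1), no filter, no scaling, unrescaled factors, a replicate block, a batch term for low against high replicate numbers, all 22 libraries in 1 fit, and leaving out each library in turn. The block and batch term were run for KD against control only, and the fit of all 22 libraries for stage changes and differences of the KD effect only. No library was dropped, and each of the 22 value columns was matched to a sample.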

Additional observations from a re-analysis of the deposited data

Results flagged for a closer look

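Of 49 groups of libraries tested over 26 genes, 5 held a library far from the others of its group, and chance gives about 1 in 20 groups. Acvr2b had its highest level among blastocyst controls, 4.94 FPKM, in replicate 4, where the other 3 lay between 3.23 and 3.31 FPKM. Cfc1 had its highest level among blastocyst controls, 29.8 FPKM, in replicate 1. In KD blastocysts, replicate 5 was far above the others for Bmpr1a, with 7.22 FPKM, and for Smad4, with 9.01 FPKM. Smad2 was lowest among morula controls in replicate 7, with 14.7 FPKM.

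Among the 10 members, the wider list of 77 genes, H2afz and H2afv, the effect of the KD differed between stages for 7 genes by the test of the difference itself, which 11.7% of all genes passed for blastocysts minus morulae and 1.43% for morulae minus 2-cell. The KD effect in blastocysts minus that in morulae was -2.18 for Tdgf1, -2.27 for Cfc1, -2.21 for Id2, -1.61 for Skil, 1.89 for Fstl3 and 1.04 for H2afv, all on the log2 scale. With a pseudocount of 0.1 the value of Cfc1 was -1.33 (adjusted p 0.114) and did not pass, and its KD libraries lay below its controls in morulae too, at less than 1 FPKM. For H2afz the KD effect in morulae minus that at the 2-cell stage was -2.88, and with no filter on low FPKM its adjusted p was 0.0531. For H2afv that effect was -2.71, and its value for blastocysts minus morulae had an adjusted p of 0.0661 with no filter and 0.0503 without morula KD replicate 6.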

How the results depend on the processing

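Over the alternatives, the counts of each comparison and the values of chosen genes were recorded. For stage changes the chosen genes were mainly members that passed, so the totals are not a rate over all genes. Of 1483 values recorded, 1389 kept their direction and their side of the threshold or stayed within 1.5 times the count. A further 22 counts moved beyond that, 19 values reversed, 14 gained and 39 lost their call. The fall of Tdgf1 and the rise of Id3 in KD blastocysts kept their calls in every alternative run for KD against control. Unless stated, the cause of a change was not tested.

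With factors not rescaled, an alternative chosen after seeing the data, DEGs numbered 387 in morulae and 1626 in blastocysts (395 and 1640 with rescaled factors), and the same members passed in all 9 comparisons. With a pseudocount of 0.1, DEGs numbered 790 in morulae, 2479 in blastocysts (1640) and 2941 for KD morula to blastocyst (1711), and Foxh1 in morulae was 0.0144. With no filter, 0 members passed in morulae, where DEGs numbered 171 by limma, and DEGs numbered 68 (182) and 576 (981) for the KD effect in morulae minus 2-cell and in blastocysts minus morulae. Without scaling, Tdgf1-ps1 in morulae was -0.0630. The median of all genes shifted to 0.146 for KD morula to blastocyst and to 0.111 for the KD effect in blastocysts minus morulae, and the share of DEGs that rose went from 27.8% to 14.3% in morulae, from 56.5% to 72.7% for KD morula to blastocyst and from 46.2% to 58.2% for that KD effect. With all 22 libraries in 1 fit, 2 members passed for it, Tdgf1 and Bmp4.

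Libraries with the same replicate number were not paired by the labels, and the correlation of their residuals was 0.208, 0.0147 and 0.214 for the pairs of 2-cell libraries, 0.181 and 0.0943 for those of morulae, and for blastocysts 0.0859, -0.11, 0.353 and 0.00151. Between any control and KD library of the same range of numbers it was -0.0211 to 0.214 at the 2-cell stage and 0.0943 to 0.346 in morulae. Across ranges it was -0.237 to 0.0102 and -0.278 to -0.0944. In blastocysts, control replicate 1 had 0.401 with KD replicate 4 and -0.381 with KD replicate 5. With the replicate number as a block, Smad1 at the 2-cell stage was -0.0398, Foxh1 and Tgif2 in morulae were 0.0645 and -0.12, and DEGs numbered 521 in morulae and 1646 in blastocysts. This block takes the KD difference only from replicate numbers found in both groups, which were 1, 2 and 4 at the 2-cell stage and 1 and 2 in morulae.

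The share of all genes that passed in morulae, 13.3%, was 1.25% with no filter, 5.37% without KD replicate 1, 5.12% without KD replicate 2 and 8.44% and 7.91% without control replicates 7 and 8. In blastocysts it was 11.2% with no filter (36.5%), and for the KD effect in blastocysts minus morulae 2.65% with no filter and 7.59% without morula KD replicate 1 (11.7%). For that in morulae minus 2-cell (1.43%) it ranged from 0.301% with no filter to 2.33% without scaling. With no filter the stage changes had 42.5% and 39.8% from the 2-cell stage to the morula (83.7% and 80.7%) and 22.8% and 13.7% from there to the blastocyst (55.6% and 38.1%), in controls and under KD.

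Leaving out each library in turn gave 0 to 3 DEGs at the 2-cell stage, 0 to 2 members passing in morulae, 2 to 4 in blastocysts and 1 to 2 for the KD effect in blastocysts minus morulae, and 85 to 278 DEGs for the KD effect in morulae minus 2-cell. The log2 difference ranged from -0.0397 to 0.34 for Smad1 and from -0.16 to 0.28 for Id3 at the 2-cell stage, and in morulae from -0.46 to 0.10 for Tdgf1, from -0.12 to 0.20 for Foxh1 and from -0.0540 to 0.11 for Tdgf1-ps1. It ranged from -0.23 to 0.0232 for Smad4 in blastocysts, from -0.28 to 0.12 for Tdgf1 in control morula to blastocyst and from -0.0818 to 0.21 for Id3 in the KD effect in blastocysts minus morulae. Depth is unknown, so a level near 0 FPKM cannot be told from a level too low to be read.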

Other observations

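Ligands outside the 10 members were present at the 2-cell stage. Bmp15, an oocyte ligand of the same family, was at 138, 128, 138 and 116 FPKM in 2-cell control replicates 1, 2, 4 and 5 and at 119, 104 and 127 FPKM in KD replicates 1, 2 and 4, and it was at most 0.597 FPKM in any morula library. The KD libraries overlapped with the controls, and the log2 difference at the 2-cell stage was -0.09 (SE 0.15, adjusted p 0.934). Gdf9, its partner in the oocyte, was at 34.1, 24.4, 42.1 and 43.7 FPKM in the controls and at 24.2, 28.2 and 27.6 FPKM under KD, with a log2 difference of -0.32 (SE 0.19, adjusted p 0.828). Bmp5 had mean levels of 79.97 FPKM in controls and 77.7 FPKM under KD (log2 difference -0.00875, SE 0.20, adjusted p 0.998), and Tgfb2 of 13.0 and 15.3 FPKM (0.14, SE 0.61, adjusted p 0.975). For Tgfb2 a single library in each group, at 30.2 and 33.5 FPKM, carried the mean, and the medians were 7.48 and 6.76 FPKM.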
